A study of Homo sapiens with 5 samples.

Results

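The genes of 7 calcium-conducting channels and 2 calcium sensors were followed in weakly and strongly adherent tumour cells: PIEZO1, TRPM7, TRPC1, ITPR1, ITPR2, ITPR3, ORAI1, STIM1 and STIM2. They were chosen by gene symbol, 9 of the 25382 gene rows in the count table, and all 9 had enough reads to be among the 13297 genes tested. The cells were MDA-MB-231, an established line from a human triple-negative breast tumour with mesenchymal traits, grown in DMEM with fetal bovine serum and antibiotic, and parted by shear stress into weakly and strongly attached cells. The study asked how these fractions of 1 line differ in gene expression. There were 3 libraries of weakly adherent cells, dated 6, 12 and 15 March, and 2 of strongly adherent cells, dated 6 and 15 March; the labels name no genetic change or drug in either group. The labels do not say whether libraries came from separate cultures, so p-values measure only the spread between these libraries, which may be technical, and a response to the shear itself cannot be told apart from a difference the cells had before.

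These genes belong to linked routes of calcium into the cytosol. PIEZO1 forms a pore in the plasma membrane that opens when the membrane is stretched, and TRPM7 and TRPC1 are cation channels of the TRP family, TRPM7 carrying a kinase domain as well. Inositol trisphosphate (IP3), made by phospholipase C, opens the IP3 receptors ITPR1, ITPR2 and ITPR3 and releases calcium from the endoplasmic reticulum. STIM1 and STIM2 sense the fall of calcium in that store and open ORAI1, the pore of store-operated calcium entry. In breast cancer cell lines, store-operated entry and TRPM7 have been linked to migration and to the turnover of adhesions.

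Reads in genes numbered 19630386 to 21707459 per library. Levels are given as CPM, reads of a gene scaled to a common library size by TMM, and positive log2 fold changes mean a higher level in weakly adherent cells; a gene is called at a Benjamini-Hochberg adjusted p under 0.05 in edgeR's quasi-likelihood test over all 13297 genes. The line's label was checked with its markers: VIM lay between 2458 and 2746 CPM over the 5 libraries, CD44 between 1471 and 1696 CPM, and ITGB1 between 986 and 1127 CPM, while the hormone receptor genes ESR1 and PGR had 0 reads in each library. ERBB2, also checked as a marker expected to be low, was detected at 82.8 to 93.9 CPM, so it did not by itself bear out the label. Reads outside annotated genes were 9.02%, 8.97% and 9.84% of uniquely aligned reads in weakly adherent libraries of 6, 12 and 15 March, against 7.96% and 8.89% in the strongly adherent ones of 6 and 15 March, and their part in the results was not tested.

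Weakly adherent cells had more RNA of 2 of the 3 IP3 receptor genes, ITPR1 and ITPR2, while the third and by far the most abundant, ITPR3, stayed within the spread of the libraries. In such bulk samples, fewer cells with a transcript and less of it per cell cannot be told apart. Of the 9 genes 2 were called higher and 0 lower, where 1.77% of all genes tested were called higher and 0.918% lower. Both called genes have coding sequences of 8 to 10 kb, a class in which 50.0% of 76 tested genes were called higher. The 9 genes were chosen with earlier results of these data known, so these shares are no independent comparison. Unadjusted, 3 of the 9 and 1889 of all genes (14.2%) had a p under 0.05. DESeq2's Wald test also called 2 of the 9 higher and 0 lower, and over all genes it called 296 higher and 138 lower. For 3 genes, PIEZO1, ITPR1 and ITPR2, every weakly adherent library lay above both strongly adherent ones, and for 2, ORAI1 and STIM1, every one lay below; of all genes tested 15.5% were so separated upwards and 14.5% downwards.

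**Figure D1:**
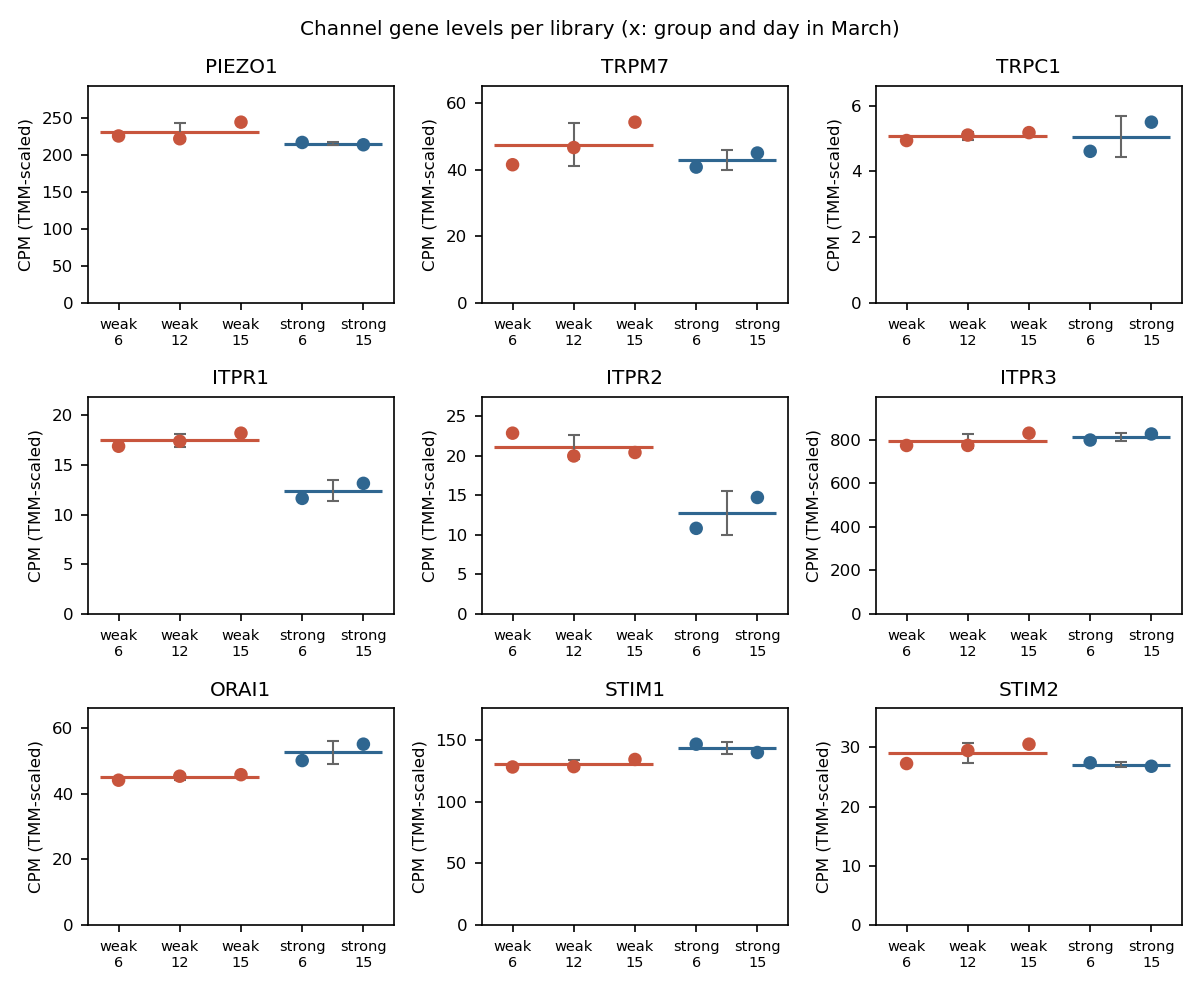
Level of each of the 9 genes per library, in CPM after TMM scaling with the axis starting at 0; points are libraries, lines are group means and bars the SD (n = 3 weakly and n = 2 strongly adherent). ITPR1 and ITPR2 show the widest gaps between the groups, while ITPR3, between 774 and 831 CPM, shows overlapping libraries.

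The genes differed widely in abundance. Per kilobase of coding sequence, a scale on which different genes can be set side by side as far as that length fits the transcripts present, ITPR3 stood first in every library, at 99.0 ± 4.06 CPM per kb in weakly adherent cells (SD, n = 3) and 102 ± 2.46 CPM per kb in strongly adherent cells (SD, n = 2). STIM1 followed with 54.9 ± 1.45 CPM per kb in weakly and 60.4 ± 2.02 CPM per kb in strongly adherent cells, and ORAI1 with 50.0 ± 0.96 CPM per kb in weakly and 58.3 ± 3.92 CPM per kb in strongly adherent cells. STIM1 and ORAI1 changed places in the strongly adherent library of 15 March, where ORAI1 had 61.1 and STIM1 58.9 CPM per kb. PIEZO1 came next in every library (30.6 ± 1.59 CPM per kb in weakly, 28.6 ± 0.29 in strongly adherent cells), then STIM2 (12.9 ± 0.74 in weakly, 11.98 ± 0.18 in strongly adherent cells) and then TRPM7 (8.50 ± 1.15 in weakly, 7.68 ± 0.53 in strongly adherent cells). The last places were shared by ITPR2, TRPC1 and ITPR1. In weakly adherent cells their levels per kb were 2.60 ± 0.19, 2.13 ± 0.05 and 2.11 ± 0.08 CPM, and in strongly adherent cells 1.58 ± 0.34, 2.13 ± 0.26 and 1.496 ± 0.13 CPM. ITPR2 led the 3 in each weakly adherent library, and TRPC1 led them in each strongly adherent one. The order of TRPC1 and ITPR1 changed between weakly adherent libraries, and that of ITPR1 and ITPR2 between strongly adherent ones. Per kilobase of transcript length, an alternative chosen after seeing the data, ITPR3 and STIM1 still led in every library, but PIEZO1 (28.6 ± 1.49 CPM per kb in weakly, 26.7 ± 0.27 in strongly adherent cells) stood above ORAI1 (21.1 ± 0.41 in weakly, 24.6 ± 1.65 in strongly adherent cells). TRPC1 was then the lowest of the 9 in 4 of the 5 libraries and stood above both ITPR1 and ITPR2 in none, so the order at the low end, and that of ORAI1 and PIEZO1, depends on which length is used.

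ITPR2, the IP3 receptor most sensitive to IP3 in binding studies, had the largest change of the 9. Its level was 22.9, 19.97 and 20.4 CPM in weakly adherent libraries of 6, 12 and 15 March, against 10.8 and 14.7 CPM in the strongly adherent ones of 6 and 15 March. The groups did not overlap, and the strongly adherent library of 6 March was the lowest. ITPR2 rose 1.65-fold, a log2 fold change of 0.72 (SE 0.14, adjusted p = 0.014 in edgeR). Within dates the log2 difference was 1.07 on 6 March and 0.47 on 15 March. The call ended when the strongly adherent library of 6 March was left out, at a log2 fold change of 0.52 (adjusted p = 0.15 in edgeR).

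ITPR1, the receptor that dominates in neurons and smooth muscle, was measured at a similar level. It had 16.9, 17.4 and 18.2 CPM in weakly adherent libraries of 6, 12 and 15 March, against 11.6 and 13.1 CPM in the strongly adherent ones of 6 and 15 March. The groups did not overlap, and the gap was alike on both dates, with log2 differences of 0.53 and 0.47. ITPR1 rose 1.41-fold, a log2 fold change of 0.50 (SE 0.11, adjusted p = 0.037 in edgeR). With single libraries left out of edgeR's fit, the call ended for the strongly adherent ones of 6 March (adjusted p = 0.32) and 15 March (0.074) and the weakly adherent ones of 12 March (0.088) and 15 March (0.10), but not for that of 6 March (0.042), while its log2 fold change stayed between 0.41 and 0.59. With the date as a block, edgeR called both ITPR1 (adjusted p = 0.00025) and ITPR2 (adjusted p = 1.7e-10) higher, as it did 6.20% of all genes. Its fits with that block leave 1 residual degree of freedom and give the library of 12 March no weight. Their p-values therefore rest mainly on a spread shared over genes, not on each gene's own.

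ITPR3, the receptor typical of many epithelia, had 774, 775 and 831 CPM in weakly adherent libraries of 6, 12 and 15 March, against 799 and 827 CPM in the strongly adherent ones of 6 and 15 March. The groups overlapped, and the log2 fold change was -0.04 (SE 0.07, adjusted p = 0.91 in edgeR). Because the 3 receptors have coding sequences of nearly the same length, 8274 bases for ITPR1, 8103 for ITPR2 and 8013 for ITPR3, their shares of the family's RNA can be compared directly. Of the family's reads per kilobase, ITPR3 supplied 95.2%, 95.5% and 95.7% in weakly adherent libraries of 6, 12 and 15 March, against 97.3% and 96.8% in the strongly adherent ones of 6 and 15 March. ITPR2 supplied 2.51% ± 0.24 in weakly adherent cells (SD, n = 3) and 1.504% ± 0.28 in strongly adherent cells (SD, n = 2), and ITPR1 2.04% ± 0.03 in weakly and 1.43% ± 0.08 in strongly adherent cells. None of these shares overlapped between the groups. A two-sided exact permutation test gave p = 0.10 for each, which is the smallest that the 10 arrangements of these libraries allow. The 3 shares add up to the whole and restate the levels given above, so these are not 3 independent tests. The sum of ITPR1 and ITPR2 was 4.86, 4.56 and 4.72 CPM per kb in the weakly adherent libraries, against 2.74 and 3.41 CPM per kb in the strongly adherent ones, without overlap. The sum of all 3 was 101.5, 101.3 and 108 CPM per kb in weakly adherent and 103 and 107 CPM per kb in strongly adherent libraries, with the groups overlapping.

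RefSeq promoter windows (build GRCh38.p14) matched 7 of the 9 genes; ITPR2 and ORAI1 were without an entry. The 250 bases before the annotated start are shown for the receptor gene that rose and the one that did not, ITPR1 on the plus strand at chr3:4493098-4493347 and ITPR3 on the plus strand at chr6:33621072-33621321, with each GC box in capitals.
ITPR1: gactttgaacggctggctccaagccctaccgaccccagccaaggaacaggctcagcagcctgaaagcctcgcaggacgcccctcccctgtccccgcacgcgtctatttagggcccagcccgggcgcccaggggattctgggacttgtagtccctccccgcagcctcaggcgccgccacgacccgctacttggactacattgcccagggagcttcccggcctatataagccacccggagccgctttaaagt
ITPR3: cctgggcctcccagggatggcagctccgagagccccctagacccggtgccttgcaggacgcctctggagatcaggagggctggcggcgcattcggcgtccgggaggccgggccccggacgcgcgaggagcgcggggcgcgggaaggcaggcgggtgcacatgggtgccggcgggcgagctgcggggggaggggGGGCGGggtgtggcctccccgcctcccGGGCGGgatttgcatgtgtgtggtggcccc
These windows were searched on both strands for the NFAT core GGAAA, the TEAD core GGAATG, the GC box GGGCGG, the CCAAT box, the cAMP response element TGACGTCA, the TATA box TATAAA, the E-box CACGTG and the EGR1 site GCGGGGGCG, of which the EGR1 site and the GC box can share bases. The ITPR1 window held none of these 8 exact strings, and its bases were 64.8% G or C. Variants of the strings were not searched for, such as tatataag near the end of the ITPR1 window, which is close to TATAAA. The ITPR3 window held 2 GC boxes and none of the others, and its bases were 76.8% G or C. Of 35116 windows of this length in the table, 42.6% held a GC box, 55.6% an NFAT core, 11.9% a TEAD core and 32.0% a CCAAT box, and the median G or C content was 58.0%. These matches describe the letters and say nothing about which factors bind there.

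Fold changes over all genes were larger in classes of longer coding sequence, and the IP3 receptors took different places in theirs. All 3 receptors fall among the 76 tested genes with a coding sequence of 8 to 10 kb, whose median log2 fold change was 0.41, with 50.0% of them called higher. ITPR1 stood close to that median, with 47 of the 76 below it, ITPR2 stood above it with 62 below it, and ITPR3 stood low with 7 below it. By library, the class median lay 0.16, 0.12 and 0.22 above the mean of the 5 libraries (log2 CPM) in weakly adherent libraries of 6, 12 and 15 March, and at -0.31 and -0.20 in the strongly adherent ones of 6 and 15 March. ITPR1 followed closely, at 0.15, 0.19 and 0.26 in weakly adherent and -0.38 and -0.21 in strongly adherent libraries. ITPR2 had 0.41, 0.22 and 0.25 in weakly adherent and -0.66 and -0.22 in strongly adherent libraries, so that it left the class median mainly on 6 March. ITPR3 had -0.05, -0.05 and 0.05 in weakly adherent and -0.0028 and 0.05 in strongly adherent libraries, apart from the class median in both groups.

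**Figure D2:**
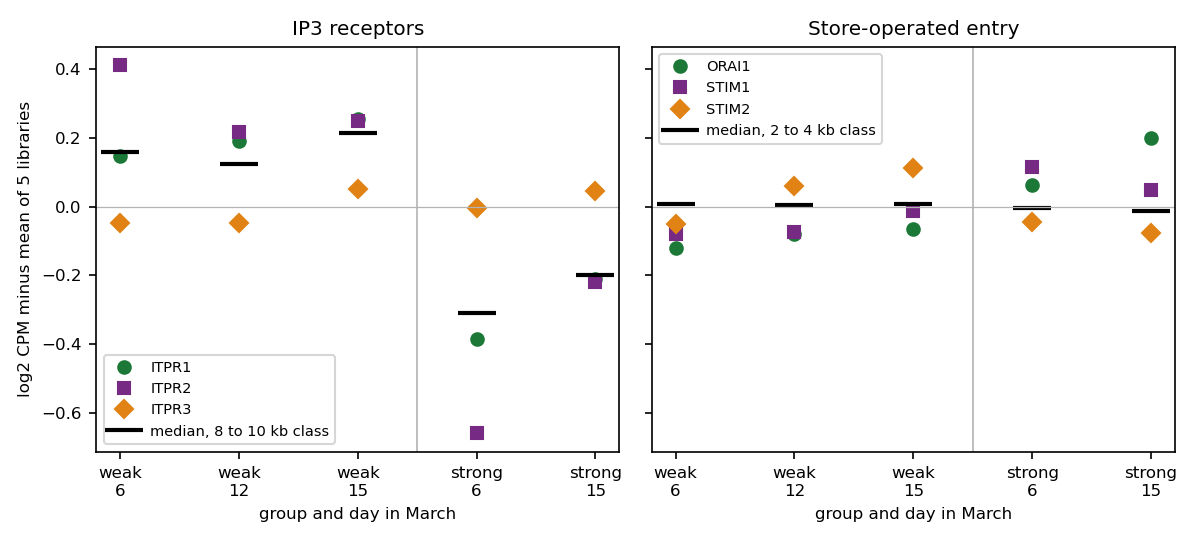
Log2 CPM of the IP3 receptors (left) and of ORAI1, STIM1 and STIM2 (right) minus each gene's mean over the 5 libraries, by group and day in March; black dashes are medians of a coding length class. ITPR1 lies near the dashes in each library, ITPR2 lies furthest from them on 6 March, and ITPR3 stays within 0.053 of its mean.

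When each library's trend with coding length was taken out, the picture of the receptor family shifted downwards as a whole by 0.32 to 0.33 on the log2 scale. ITPR1 then had a log2 fold change of 0.17 (SE 0.12, adjusted p = 0.65 in edgeR) and ITPR2 one of 0.40 (SE 0.13, adjusted p = 0.11 in edgeR), and neither was called. ITPR3 had -0.35 (SE 0.09, adjusted p = 0.036 in edgeR) and was called lower. In that fit 0 of the 9 genes were called higher and 1 lower, where 0.948% of all genes were called higher and 1.05% lower. With the date as a block as well, ITPR2 was called higher (0.42, adjusted p = 0.0019 in edgeR) and ITPR3 lower (-0.35, adjusted p = 6.6e-05 in edgeR), where 4.47% of all genes were called higher and 5.23% lower; ITPR1 had 0.15 (adjusted p = 0.49). The order of the 3, ITPR2 over ITPR1 over ITPR3, was the same with and without the trend, which shifts them by nearly equal amounts. With the trend with transcript length taken out instead, and no block, ITPR2 stayed called higher (0.55, adjusted p = 0.022 in edgeR). ITPR1 then had 0.35 (adjusted p = 0.12) and ITPR3 -0.17 (adjusted p = 0.40), and neither was called. The calls on ITPR2 and ITPR3 thus depended on which length was used. Which transcript of each gene the cells used is not known, and the longest annotated one was taken.

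**Figure D3:**
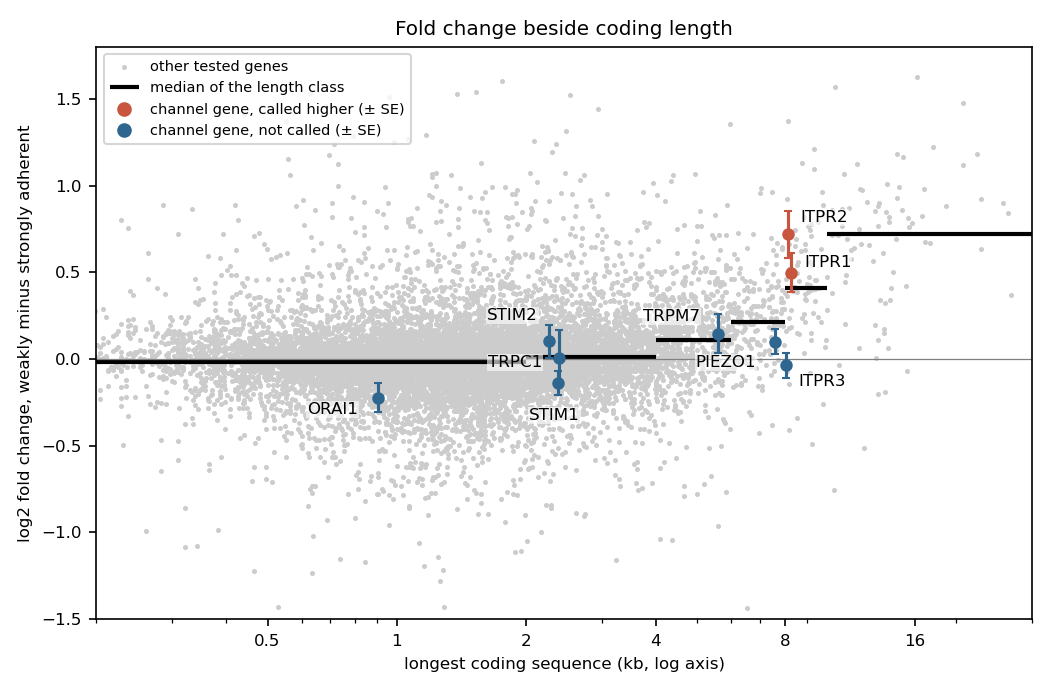
Log2 fold change (weakly minus strongly adherent) against the longest coding sequence in kb on a log axis; grey points are tested genes, of which those outside the axes are not drawn, black lines are class medians and bars on the 9 genes are SE. ITPR1 and ITPR2 (red, called higher) lie above the median of 0.41 of their class, and ITPR3 and PIEZO1 (blue, not called) lie below the medians of theirs.

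PIEZO1, the stretch-gated channel, had 226, 223 and 245 CPM in weakly adherent libraries of 6, 12 and 15 March, against 218 and 214 CPM in the strongly adherent ones of 6 and 15 March. The groups did not overlap, but the gap was small, and the log2 fold change of 0.10 (SE 0.07, adjusted p = 0.64 in edgeR) did not pass the test. Its coding sequence of 7563 bases puts it among 190 genes of 6 to 8 kb with a median of 0.21, and 58 of them had a lower log2 fold change. With the coding length trend removed its log2 fold change was -0.19 (SE 0.08, adjusted p = 0.31 in edgeR). It was 0.018 (adjusted p = 0.97 in edgeR) with the transcript length trend removed, so its direction depends on that choice.

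TRPM7, the channel kinase that carries magnesium and calcium, had 41.6, 46.7 and 54.4 CPM in weakly adherent libraries of 6, 12 and 15 March, against 40.9 and 45.1 CPM in the strongly adherent ones of 6 and 15 March. The groups overlapped, and in both the library of 6 March was the lowest. Its log2 fold change was 0.15 (SE 0.11, adjusted p = 0.66 in edgeR), with 0.025 on 6 March and 0.27 on 15 March, and -0.023 with the coding length trend removed. It was 0.044 when the weakly adherent library of 15 March was left out and 0.24 when that of 6 March was, and 0.076 and 0.22 when the strongly adherent ones of 6 and 15 March were. TRPC1, a cation channel that forms complexes with other TRPC subunits, was low, with 98 to 121 reads per library. It had 4.94, 5.11 and 5.18 CPM in the weakly adherent libraries, against 4.61 and 5.50 CPM in the strongly adherent ones, between which all 3 weakly adherent values lay. Its log2 fold change of 0.0050 (SE 0.16, adjusted p = 0.996 in edgeR) changed sign when single libraries were left out.

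None of the 3 genes of store-operated entry passed the test without the date as a block. ORAI1, the pore, had 44.2, 45.4 and 45.9 CPM in weakly adherent libraries of 6, 12 and 15 March, against 50.2 and 55.2 CPM in the strongly adherent ones of 6 and 15 March. All weakly adherent libraries were lower, by a log2 difference of -0.18 on 6 March and -0.27 on 15 March. The log2 fold change of -0.22 (SE 0.08) did not pass edgeR's test over all genes (adjusted p = 0.22). With the date as a block it did (-0.23, adjusted p = 0.037), the only one of the 9 called lower there, where 5.28% of all genes were; that fit leaves 1 residual degree of freedom.

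STIM1, the main sensor of store calcium, had 128, 128 and 134 CPM in weakly adherent libraries of 6, 12 and 15 March, against 147 and 140 CPM in the strongly adherent ones of 6 and 15 March. Here too all weakly adherent libraries lay below, but the log2 fold change of -0.14 (SE 0.07) did not pass with (adjusted p = 0.25 in edgeR) or without the date as a block (0.42). STIM2, the sensor that responds to smaller losses of store calcium, had 27.3, 29.5 and 30.5 CPM in weakly adherent libraries, against 27.4 and 26.8 CPM in strongly adherent ones, with a log2 fold change of 0.10 (SE 0.09, adjusted p = 0.74 in edgeR). The groups overlapped for STIM2, since the weakly adherent library of 6 March fell between the strongly adherent ones. As a share of the reads per kilobase of both sensors, STIM2 made up 18.3%, 19.4% and 19.3% in weakly adherent libraries of 6, 12 and 15 March, against 16.4% and 16.7% in the strongly adherent ones of 6 and 15 March. The shares did not overlap, and a two-sided exact permutation test gave the smallest p that these libraries allow, 0.10. Removing the trend with coding length left these 3 genes nearly where they were, at -0.19 for ORAI1, -0.14 for STIM1 and 0.10 for STIM2, whose coding sequences of 903, 2373 and 2262 bases are short.

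**Figure D4:**
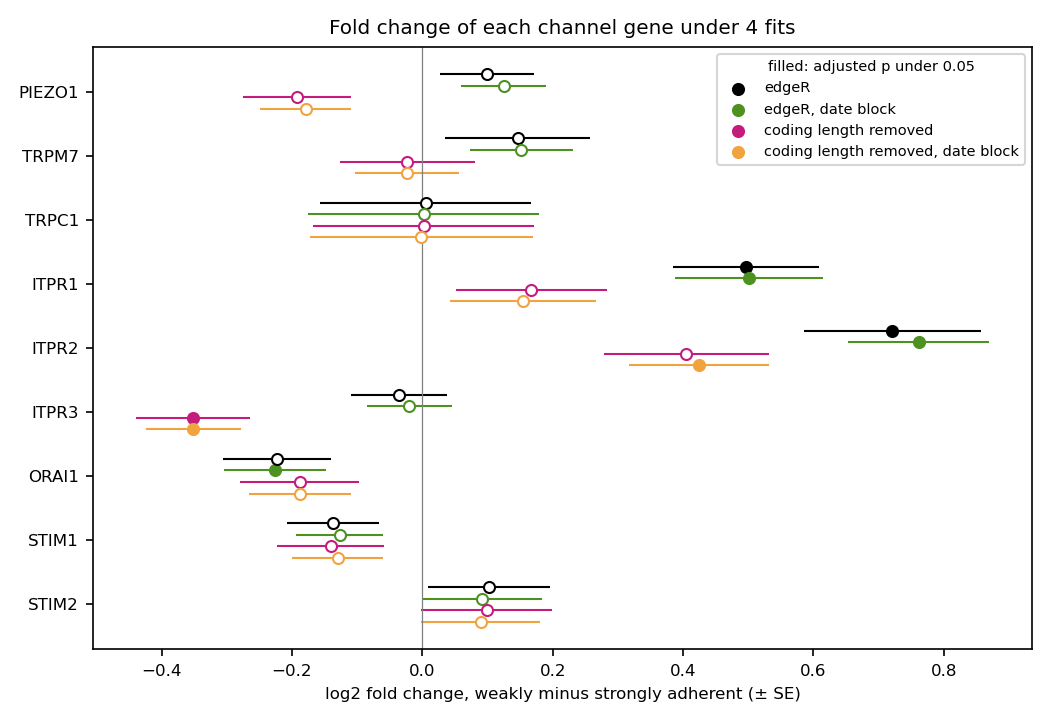
Log2 fold change (weakly minus strongly adherent) of the 9 genes with its SE in 4 edgeR fits: without and with the date as a block, and with the coding length trend removed without and with that block; filled points have an adjusted p under 0.05. The IP3 receptors, PIEZO1 and TRPM7 shift to the left when the length trend is removed, and ORAI1, STIM1, STIM2 and TRPC1 stay in place.

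Some exons overlap other annotated genes. HTSeq keeps a row for ambiguous reads, and the sources used here do not give the strand setting of the counting. Reads in such exons may thus be missing from a gene's count or belong to the other gene. In GENCODE release 29 the opposite-strand gene UQCC2 covers 10.4% of the annotated exonic bases of ITPR3, and the antisense gene that overlaps PIEZO1 most covers 12.6% of its exonic bases. The largest such share was 4.89% for TRPM7, 1.85% for STIM1, 1.37% for ITPR1 and 0.988% for ITPR2, where the other gene lies on the same strand.

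The profiles most like those of the called genes were named by the smallest root-mean-square difference of centred log2 CPM over the 5 libraries, among the 9343 genes averaging 10 CPM or more. For ITPR1 these were the chromatin remodeler CHD6 (difference 0.026) and the BMP receptor BMPR2 (0.026), which rose with log2 fold changes of 0.50 (adjusted p = 0.0083 in edgeR) and 0.50 (0.0074). For ITPR2 they were the transcription factor ZFHX3 (difference 0.057) and the microtubule-associated protein MAP1B (0.067), which rose with log2 fold changes of 0.69 (adjusted p = 0.0070 in edgeR) and 0.70 (0.0014). Since all were picked for profiles close to those of called genes in the same libraries, their rise follows from that choice. CHD6 has a coding sequence of 8145 bases, ZFHX3 one of 11109 and MAP1B one of 7404, while that of BMPR2 has 3114.

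Around the 9 channel genes, no other gene of the calcium lists passed the test. A further 8 lists held 71 tested genes, of which 0 were called in edgeR without a block. In that fit 1.77% of all genes were called higher and 0.918% lower, so 0 of 71 lies near those shares. Of the 71 genes, 4 (5.63%, against 14.2% of all genes) had an unadjusted p under 0.05 in that test. With the date as a block 5 of the 71 were called (7.04%, counting both directions), 1 higher and 4 lower. Of all 13297 genes that fit called 825 higher (6.20%) plus 702 lower (5.28%). Counting both directions, the lists thus held a smaller share of called genes than all genes did. In these 71 genes, the weakly adherent libraries lay above both strongly adherent ones in 12.7% and below in 14.1%, near the 15.5% and 14.5% of all genes. All genes tested had a median of -0.00054 on the log2 scale, and the 9 channel genes one of 0.10. These 2 medians are not matched for coding length. The 8409 tested genes with a coding sequence under 2 kb had a median of -0.015. The class of 8 to 10 kb, which holds the 3 IP3 receptors, had one of 0.41.

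Over all 13297 genes tested 6625 had a positive log2 fold change, and the counts of positive genes in the lists were not tested. Of the 7 tested IP3 producers, the phospholipase C genes, 0 were positive (median -0.11) and none was called. PLCG1, activated by receptor tyrosine kinases, had -0.10 (SE 0.07, adjusted p = 0.59 in edgeR). Of 8 tested genes of mitochondrial calcium uptake 0 were positive (median -0.07), with CCDC109B (now MCUB), a dominant negative subunit of the uniporter, at -0.11 (SE 0.09, adjusted p = 0.70 in edgeR). Of 17 tested calcium effectors 9 were positive (median 0.0038). RCAN1, an inhibitor of calcineurin and itself a target of the calcium-driven NFAT factors, had 50.1, 52.9 and 54.4 CPM in weakly adherent and 61.0 and 65.0 CPM in strongly adherent libraries, which gave -0.26 on the log2 scale (SE 0.08, adjusted p = 0.13 in edgeR), and was called lower with the date as a block (adjusted p = 0.0053).

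Of 8 tested partners of store-operated entry 4 were positive (median 0.018). JPH1, a junctophilin that holds the endoplasmic reticulum close to the plasma membrane, had 2.61, 4.29 and 5.32 CPM in weakly adherent libraries of 6, 12 and 15 March, against 6.78 and 8.45 CPM in the strongly adherent ones of 6 and 15 March, which gave -0.90 on the log2 scale (SE 0.25, adjusted p = 0.12 in edgeR). It was called lower by DESeq2 (adjusted p = 0.027) and with the date as a block (1.1e-06). Of 10 other stretch-linked channels tested 5 were positive (median -0.0087). KCNK2, the stretch-activated potassium channel TREK-1, was close to the limit of detection, with 0.546 ± 0.311 CPM in weakly (SD, n = 3) and 1.27 ± 0.07 CPM in strongly adherent cells (SD, n = 2), which gave a fold change of -1.22 on the log2 scale (SE 0.41, adjusted p = 0.17 in edgeR). With the date as a block KCNK2 was called lower (adjusted p = 0.0029). PKD1 (log2 fold change 0.20, adjusted p = 0.046) and MICU2 (-0.21, adjusted p = 0.040), both values from the fit with that block and named after their values were seen, were the other two called there. Without the block PKD1 had 0.20 (adjusted p = 0.26) and MICU2 -0.09 (adjusted p = 0.88), and the libraries of MICU2 overlapped between the groups. PKD1 has a coding sequence of 12909 bases, and its value was low for that length. The class over 10 kb had a median log2 fold change of 0.72 and a lower quartile of 0.41 without the block.

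The remaining lists were also near 0. Of 10 tested IP3 receptor partners 6 were positive (median 0.021), with BCL2L1, whose protein BCL-XL binds IP3 receptors, at -0.17 (SE 0.09, adjusted p = 0.42 in edgeR), or -0.044 when the strongly adherent library of 6 March was left out and -0.28 when that of 15 March was. Of 7 tested pumps and exchangers 4 were positive (median 0.013), with ATP2A1, a calcium pump of muscle, at 0.75 (SE 0.36, adjusted p = 0.38 in edgeR) on 0.659 to 1.71 CPM. Of 4 tested release channels other than the IP3 receptors 3 were positive (median 0.036), with the lysosomal channel TPCN1 at 0.18 (SE 0.09, adjusted p = 0.42 in edgeR).

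**Figure D5:**
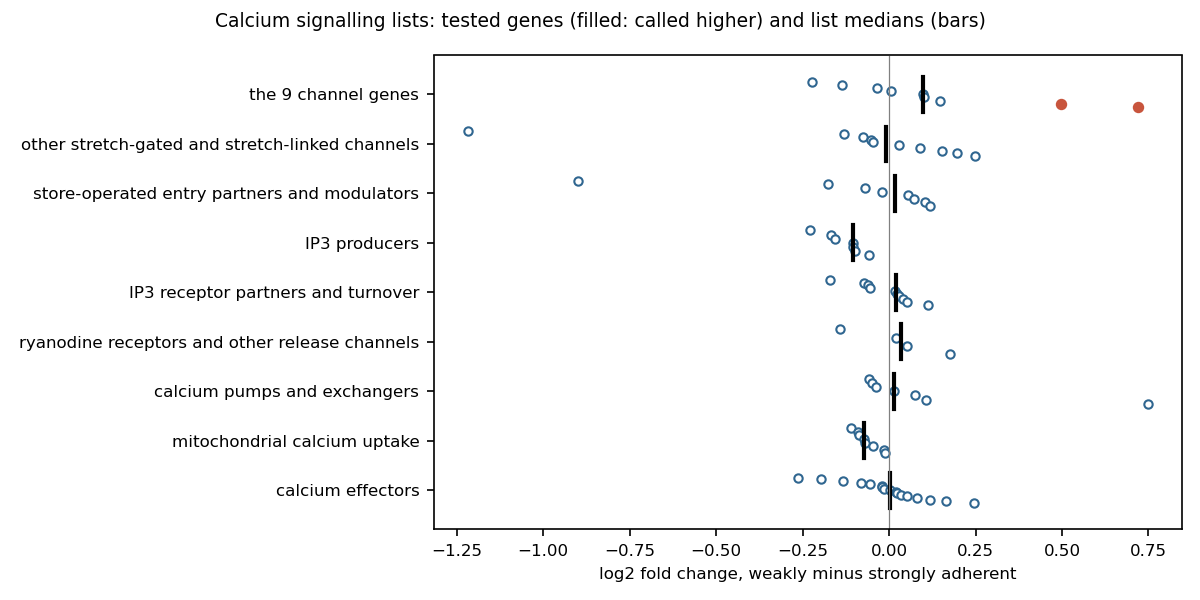
Log2 fold change (weakly minus strongly adherent) of each tested gene, by list; filled points were called higher by edgeR, open points were not called, and bars are list medians. The 2 called genes are ITPR2 and ITPR1 in the top row, and the open points furthest to the left are KCNK2 and JPH1.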

How the data were processed

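Total RNA libraries (TruSeq Stranded kit, single-end reads, per the labels' protocols) of 3 weakly and 2 strongly adherent samples were grouped by the adhesion label. The authors deposited raw counts per gene symbol, and log2 values that equal log2(count / size factor + 1) with 1 factor per library, as checked on the file (counts recovered from them differ from the raw ones by at most 0.00052 reads). Per the submitters' processing notes, hg19, STAR, HTSeq, DESeq2, cutadapt and FastQC were used; their versions, the annotation and the strand setting were not given in the sources used here. The 5 HTSeq rows that are no gene were left out: reads outside genes (7.96% to 9.84%), not aligned (1.74% to 3.02%) and not unique (16.0% to 16.8%) among them.

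The main test was edgeR's (version 4.0.16, R 4.3.3; TMM, filterByExpr, robust quasi-likelihood F test, 3 residual degrees of freedom) on 13297 genes, with p-values adjusted over all of them; SE follows from the fold change and F. The 9 genes and the lists were chosen with earlier results of these data known. Alternatives were DESeq2's size factors, DESeq2 1.42.0, limma-voom (limma 3.58.1), 2 other filters (at least 1 read, or at least 1 CPM in 2 libraries), the date as a block, the authors' log2 values with pseudocounts 1 and 5, each library left out, and each library's trend with coding or transcript length (natural spline, 5 degrees of freedom) removed as an offset. Lengths are the longest in GENCODE release 29, matched by symbol (92% of tested genes) and used for no coordinates. The dates in the titles pair libraries of 6 and of 15 March, whose deviations from the group means correlated at 0.34 and 0.20; with so few libraries these 2 values are not independent. Under the block the library of 12 March has no weight and 1 residual degree of freedom remains. Libraries of a group differed by more than sampling noise (chi-square at least 7.54 per degree of freedom). Beyond the 9 genes, the text names from each list the called genes or else the one with the smallest p, and for each called member the 2 genes of nearest profile. Simulated counts without a date effect were run through fits without a block: edgeR, edgeR with the coding length trend removed, limma-voom and DESeq2. The other fits, those with a date block among them, were not tested in this way. Figures used matplotlib 3.10.9.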

Additional observations from a re-analysis of the deposited data

Results flagged for a closer look

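TRPC1, ITPR3 and STIM2 differed between the dates in the sign of the weakly minus strongly adherent log2 difference. TRPC1 had 0.097 on 6 March and -0.084 on 15 March, on 98 to 121 reads per library. ITPR3 had -0.046 on 6 March and 0.0064 on 15 March. STIM2 had -0.0066 on 6 March and 0.19 on 15 March. Each date has 1 library per group, and the difference between the dates was not tested.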

How the results depend on the processing

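The counts of calls depended on the date block, on coding length and on single libraries. Over all genes, 235 were called higher and 122 lower; with the date as replicate block edgeR called 825 higher and 702 lower, limma-voom with a random date block 682 and 531, edgeR with the coding length trend removed 126 higher, and with the date block as well 595 higher and 695 lower; without a filter 203 were lower. With 1 library left out, 82 to 238 were higher and 34 to 103 lower: 82 and 34 when the strongly adherent one of 6 March was left out, 138 and 56 for the weakly adherent one of 12 March, 236 and 67 for the weakly adherent and 164 and 50 for the strongly adherent one of 15 March. Of the 9 channel genes, 2 were called higher. That count was 0 with the coding length trend removed and 1 (ITPR2) with the date block as well. It was 1 (ITPR2) with the transcript length trend removed, and 0 to 2 with 1 library left out. In the lower direction 0 were called, against 1 under either date block (ORAI1) and 1 with the coding length trend removed, with or without the block (ITPR3). Log2 fold changes that turned negative were those of PIEZO1 (-0.19 with the coding length trend removed, -0.18 with the block as well), TRPM7 (-0.023, -0.024, and -0.0065 with transcript length) and TRPC1 (-0.0015 with coding length and block, and -0.12 to 0.14 with 1 library left out). The difference in the share of ITPR1 among the receptors was 0.61 percentage points, and 0.55 to 0.67 with 1 library left out. Of other uncalled genes, leaving out 1 library gave a log2 fold change of -0.065 to -0.0068 for ITPR3, 0.061 to 0.12 for PIEZO1, -0.29 to -0.15 for ORAI1, -1.52 to -0.81 for KCNK2, -0.14 to -0.047 for CCDC109B, 0.11 to 0.22 for TPCN1 and 0.45 to 0.97 for ATP2A1. The causes were not tested, other than that a removed trend is what those fits take out. No other call on the 9 genes changed under the date block. Having only 2 strongly adherent libraries limits every comparison, and TRPC1, with about 100 reads per library, cannot show small differences.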

Other observations

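Several channels of the same routes were close to absent in these cells, in contrast to the 9 genes described above. Over all 5 libraries together, 105893532 reads in genes, PIEZO2, the stretch-gated channel of touch neurons, had 2 reads, where PIEZO1 had 23848. The ryanodine receptors, the calcium release channels of muscle and nerve, had 1 read for RYR1, 12 for RYR2 and 15 for RYR3. Of the TRP channels, TRPV4 had 30 reads, TRPC4 had 6 and TRPC6 had 2. TRPC5 had 0, which allows up to 0.028 CPM (3 counts of the total, for counting error only). The plasma membrane exchanger SLC8A1 had 2 reads, and the phospholipases PLCB1 and PLCB4 had 3 and 4. None of these genes passed the filter on low counts, so none was compared between the groups.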
